A study of Mus musculus with 9 samples.

Results

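The genes described here are 7 that encode the enzymes, transfer protein and secreted inhibitors that act on circulating lipoproteins: Lpl, Lipc, Lipg, Lcat, Pltp, Angptl4 and Angptl8. In the mouse annotation Lpl and Lcat lie on chromosome 8, Lipc and Angptl8 on chromosome 9, Pltp on chromosome 2, Angptl4 on chromosome 17 and Lipg on chromosome 18. They were chosen by symbol, and all 7 had a row among the 55253 symbols of the deposited table and entered the test over 14759 genes. Their RNA was measured by 3′ mRNA sequencing in whole livers of 9 male C57Bl/6J mice. The 5 DUAL mice received a Western diet (WD) and 10% alcohol in sweetened water for 23 weeks, beginning at an age of 10 weeks, and the 4 CONTROL mice received chow and tap water. Diet, alcohol and sweetener differ at once between the groups and cannot be told apart.

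Triglyceride-rich lipoproteins are unloaded by lipases that work at the surface of blood vessels and cells. Lipoprotein lipase (Lpl) hydrolyses the triglyceride of chylomicrons and VLDL, hepatic lipase (Lipc) acts on remnants and HDL in the liver, and endothelial lipase (Lipg) acts mainly on HDL phospholipid. Lcat esterifies cholesterol on HDL, and Pltp moves phospholipid between particles. Angptl4 inactivates lipoprotein lipase and is induced by fatty acids and fasting, whereas Angptl8 is an inhibitor induced by feeding. Parenchymal cells of adult liver make hepatic lipase and Lcat but little lipoprotein lipase, which is known from muscle, fat and macrophages.

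Reads in genes numbered 3635860 to 6643645 in the DUAL libraries and 5050763 to 5910285 in the CONTROL libraries, so that 3 reads, the limit that a count of 0 allows, corresponded to between 0.455 and 0.809 CPM (the read count of a gene scaled to the size of its library with TMM factors). DUAL 1 had the fewest reads and lay furthest out on the first principal component, which held 28.9% of the variance (42.13, against 2.07 to 19.14 in the other DUAL libraries and -22.15 to -16.71 in the CONTROL libraries). The 10 hepatocyte markers summed to 29801 to 42204 CPM in DUAL and 43862 to 65048 CPM in CONTROL, and 3 of these markers fell (Serpina1a, Apoa1 and Alb). Alb had the highest mean of the list (18876 CPM in DUAL, 33497 CPM in CONTROL), so the sum follows Alb above all. Cyp2e1 and Apob had log2 fold changes of 0.09 and -0.04. Leaving out 1 of 7 libraries ended the call of Apoa1 (DUAL 1, 2 or 5 or any CONTROL, adjusted p up to 0.117, limma-trend). Leaving out any library but DUAL 3 ended that of Alb (adjusted p up to 0.137, limma-trend). Without the filter neither was called, nor was Alb with a pseudocount of 5 or with all libraries rescaled to the same total (adjusted p up to 0.442, limma-trend).

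Lipoprotein lipase was the member that changed. Lpl RNA stood at 191, 69.1, 96.1, 125 and 156 CPM in DUAL 1 to 5, against 8.90, 19.1, 12.3 and 18.9 CPM in CONTROL 1 to 4. The lowest DUAL liver thus lay above the highest CONTROL liver, and the values rested on 452 to 824 reads per DUAL library against 54 to 100 reads per CONTROL library. The means were 127 ± 48.1 CPM in DUAL (SD, n = 5) and 14.8 ± 5.06 CPM in CONTROL (SD, n = 4), a ratio of 8.59. On the log2(CPM + 1) scale Lpl was higher by 2.99 ± 0.27 (SE; 95% interval 2.41 to 3.58), with an adjusted p of 7.03e-05 (limma-trend, Benjamini-Hochberg over all genes). It held place 9 by size of fold change among the 238 genes that rose. In bulk liver, more cells that make Lpl and more Lpl RNA per cell cannot be told apart.

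Lpl was thus 1 of 7 members called, and the other 6 were not called. Of all tested genes, 2.29% were called, 1.61% higher and 0.678% lower. edgeR on the recovered reads also called Lpl alone among the members (2.13% of all genes), as did DESeq2 (3.71% of the genes it tested). The groups did not overlap for 1 of 7 members (Lpl, DUAL above), against 5.34% of all tested genes, while 3.34% of them had every DUAL liver above every CONTROL liver. The median log2 fold change of the 7 members was -0.21, with 3 positive and 4 negative, beside a median of -0.0008 over all tested genes.

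**Figure D1:**
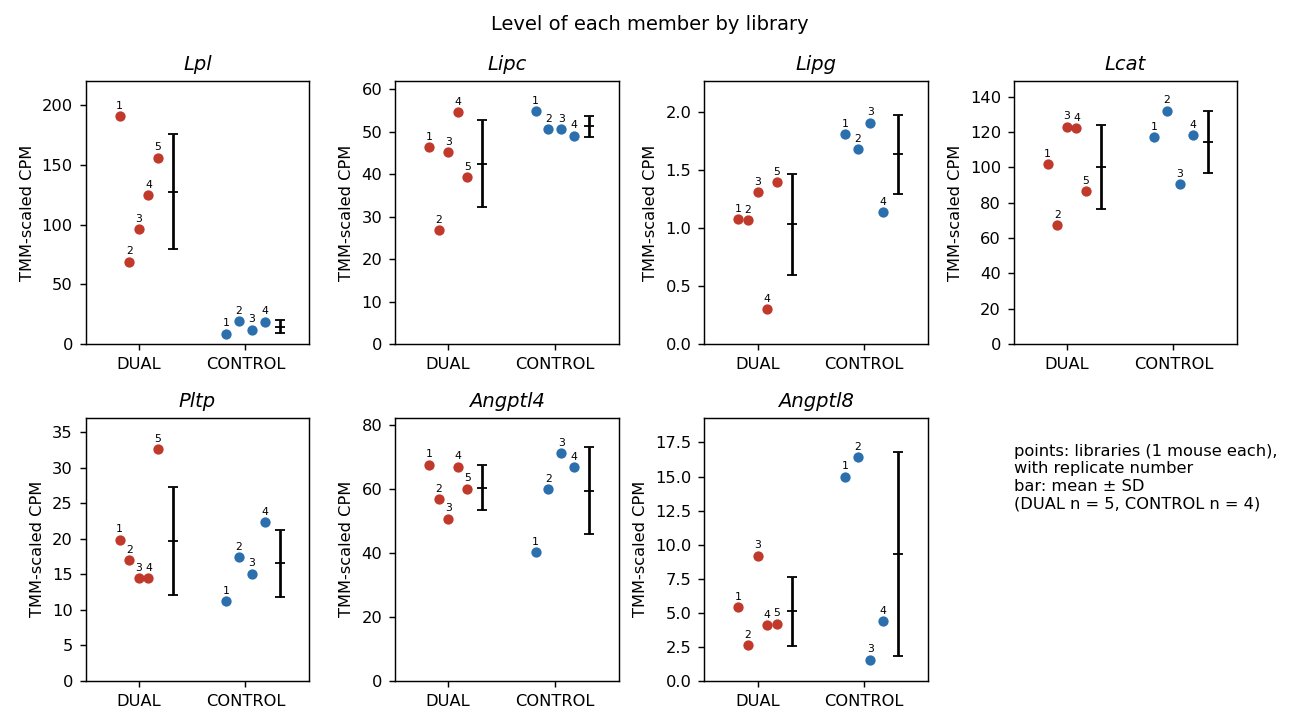
Level of each of the 7 genes in TMM-scaled CPM (vertical axes, linear from 0, scaled per gene) in the 5 DUAL and 4 CONTROL libraries, with replicate numbers beside the points and bars for mean ± SD. Lpl separates the groups (69.1 to 191 CPM in DUAL, 8.90 to 19.1 CPM in CONTROL), whereas the points of the other 6 genes overlap.

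Hepatic lipase showed the opposite sign without passing the test. Lipc stood at 46.4, 26.9, 45.2, 54.7 and 39.4 CPM in DUAL 1 to 5, against 54.9, 50.6, 50.6 and 49.1 CPM in CONTROL 1 to 4. The CONTROL livers lay close together (coefficient of variation 4.86%), while the DUAL livers ranged more widely (24.2%), with DUAL 2 lowest and DUAL 4 within the CONTROL range. The log2 fold change was -0.30 ± 0.16 (SE), with a 95% interval of -0.64 to 0.04 and an adjusted p of 0.475 (limma-trend). Without DUAL 2 the log2 fold change was -0.15.

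Endothelial lipase was close to the detection limit in whole liver. Lipg stood at 1.08, 1.07, 1.31, 0.303 and 1.40 CPM in DUAL 1 to 5, against 1.81, 1.68, 1.91 and 1.14 CPM in CONTROL 1 to 4. These values came from 4, 7, 7, 2 and 7 reads in DUAL and 11, 8, 11 and 6 reads in CONTROL, and the 2 reads of DUAL 4 lay under the level of 3 reads. The log2 fold change was -0.40 (95% interval -0.92 to 0.12, adjusted p = 0.569, limma-trend), so a difference was not detectable at this depth. Without DUAL 4 the log2 fold change was -0.24. On the recovered reads of all libraries it was -0.69 with edgeR and -0.7 with DESeq2, without a call.

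Within a library, the reads of the 3 related lipases were set against each other, because 3′ reads do not scale with transcript length. Other differences between genes in capture and counting were not tested. Lpl made up 80.1, 71.2, 67.4, 69.4 and 79.2% of the reads of Lpl, Lipc and Lipg in DUAL 1 to 5, against 13.6, 26.8, 19.0 and 27.4% in CONTROL 1 to 4. The Wilson 95% intervals of single libraries, which cover counting error only, ran from 64.0 to 82.6% over the DUAL libraries and from 10.5 to 32.2% over the CONTROL libraries. Lipc therefore held the most reads of the 3 in all 4 CONTROL livers, and Lpl in all 5 DUAL livers. The level of Lpl was 2.12 to 4.12 times that of Lipc in DUAL and 0.162 to 0.386 times in CONTROL. The summed level of the 3 lipases averaged 171 ± 53.8 CPM in DUAL (SD, n = 5) and 67.8 ± 3.10 CPM in CONTROL (SD, n = 4).

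**Figure D2:**
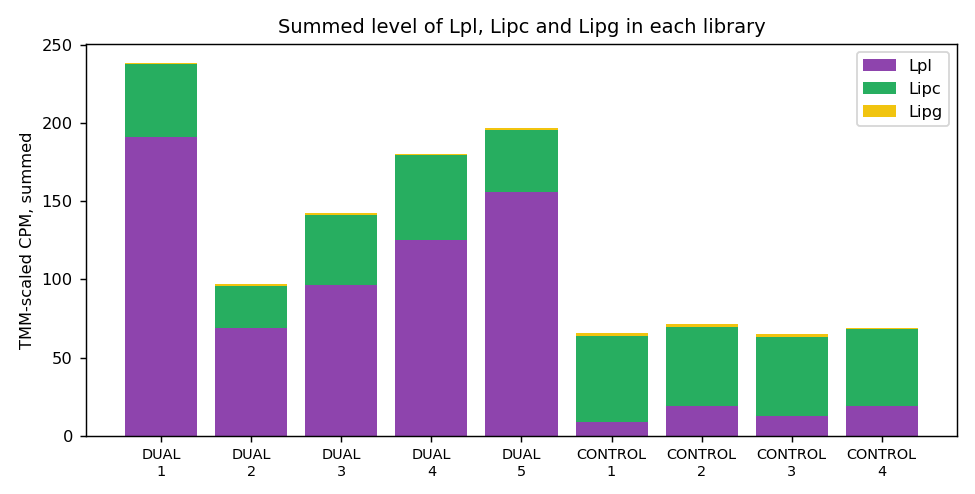
Stacked bars give the TMM-scaled CPM of Lpl, Lipc and Lipg in each library, DUAL 1 to 5 on the left and CONTROL 1 to 4 on the right. The Lipc part stays between 26.9 and 54.9 CPM while the Lpl part runs from 69.1 to 191 CPM in DUAL and from 8.90 to 19.1 CPM in CONTROL.

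RefSeq windows of the 250 bases before the annotated start (build GRCm38.p6, which is not the build of the deposited counts) matched 4 of the 7 members: Lipc, Lcat, Pltp and Angptl8. For Lipc, RefSeq gives 2 starts. A pair of windows is shown for the liver-made lipase and the feeding-induced inhibitor, with the nuclear receptor hexamer AGGTCA, searched on both strands, in capitals where it occurs. The Lipc window (minus strand, chr9:70934809-70935058) lies before the start inside the gene, and the Angptl8 window (plus strand, chr9:21835260-21835509) before its single listed start. Both are printed 5′ to 3′ in the direction of the gene.
Lipc: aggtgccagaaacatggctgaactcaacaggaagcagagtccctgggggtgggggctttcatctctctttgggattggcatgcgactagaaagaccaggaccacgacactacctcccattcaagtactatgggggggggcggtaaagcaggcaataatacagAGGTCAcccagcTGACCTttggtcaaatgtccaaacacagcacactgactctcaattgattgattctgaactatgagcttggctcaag
Angptl8: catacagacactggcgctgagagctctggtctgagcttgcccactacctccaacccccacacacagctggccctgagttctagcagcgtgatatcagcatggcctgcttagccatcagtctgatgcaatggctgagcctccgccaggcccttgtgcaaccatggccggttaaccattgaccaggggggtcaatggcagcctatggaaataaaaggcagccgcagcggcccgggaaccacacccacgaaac
The hexamer occurred in the Lipc window at 88 to 83 bases before the start and, as its reverse complement TGACCT, at 76 to 71 bases before it. These letters were not in the windows of Angptl8, Lcat or Pltp, nor in that of the other Lipc start. Of all 32851 windows of the same length, 14.0% held the hexamer on either strand. A match of letters is a description and shows no binding.

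The enzymes of HDL remodelling did not pass the test. Lcat stood at 102, 67.4, 123, 122 and 86.7 CPM in DUAL 1 to 5, against 117, 132, 90.4 and 118 CPM in CONTROL 1 to 4, with DUAL 2 and DUAL 5 below every CONTROL liver. Its log2 fold change was -0.21 ± 0.16 (SE; 95% interval -0.56 to 0.14, adjusted p = 0.695, limma-trend), and it was -0.08 without DUAL 2 and -0.32 without CONTROL 3. Pltp stood at 19.9, 17.0, 14.5, 14.5 and 32.6 CPM in DUAL 1 to 5, against 11.2, 17.4, 15.1 and 22.4 CPM in CONTROL 1 to 4, so that DUAL 5 alone lay above the CONTROL range. The log2 fold change of Pltp was 0.21 ± 0.23 (SE; 95% interval -0.28 to 0.71, adjusted p = 0.794, limma-trend) and was 0.02 without DUAL 5 and 0.05 without CONTROL 1. Pltp overlaps Ctsa, a lysosomal protease gene on the opposite strand, in the GENCODE annotation, and the sources used here do not give whether counting used strand. Ctsa stood at 79.1 to 111 CPM in DUAL and 73.7 to 78.6 CPM in CONTROL, and its highest value was also in DUAL 5. The part of such overlap in the Pltp values was not tested.

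The inhibitors of lipoprotein lipase did not pass the test. Angptl4 stood at 67.6, 56.7, 50.7, 67.0 and 60.1 CPM in DUAL 1 to 5, against 40.2, 59.9, 71.1 and 66.7 CPM in CONTROL 1 to 4. All DUAL livers lay inside the CONTROL range. The log2 fold change of Angptl4 was 0.05 ± 0.15 (SE), with a 95% interval of -0.27 to 0.36 and an adjusted p of 0.949 (limma-trend). The sign turned to -0.13 without CONTROL 1, the liver with the lowest value. The ratio of Lpl to Angptl4 CPM was 1.22 to 2.82 in DUAL and 0.174 to 0.319 in CONTROL.

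Angptl8 had the widest spread of the 7 members relative to its mean in both groups. It stood at 5.39, 2.60, 9.20, 4.09 and 4.20 CPM in DUAL 1 to 5, against 15.0, 16.4, 1.56 and 4.36 CPM in CONTROL 1 to 4. The CONTROL mice thus held both the highest and the lowest values, with 91 and 78 reads in CONTROL 1 and 2 but 9 and 23 reads in CONTROL 3 and 4. The coefficient of variation was 49.0% in DUAL and 80.0% in CONTROL. The log2 fold change was -0.45 ± 0.49 (SE; 95% interval -1.51 to 0.60, adjusted p = 0.794, limma-trend), and it ran from -0.99 without CONTROL 3 to -0.11 and -0.07 without CONTROL 1 and CONTROL 2. On the recovered reads it was -0.89 with edgeR and -0.88 with DESeq2, without a call. Angptl8 lies within Dock6, a gene on the opposite strand, which stood at 7.58 to 12.9 CPM in DUAL and 8.07 to 11.9 CPM in CONTROL.

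**Figure D3:**
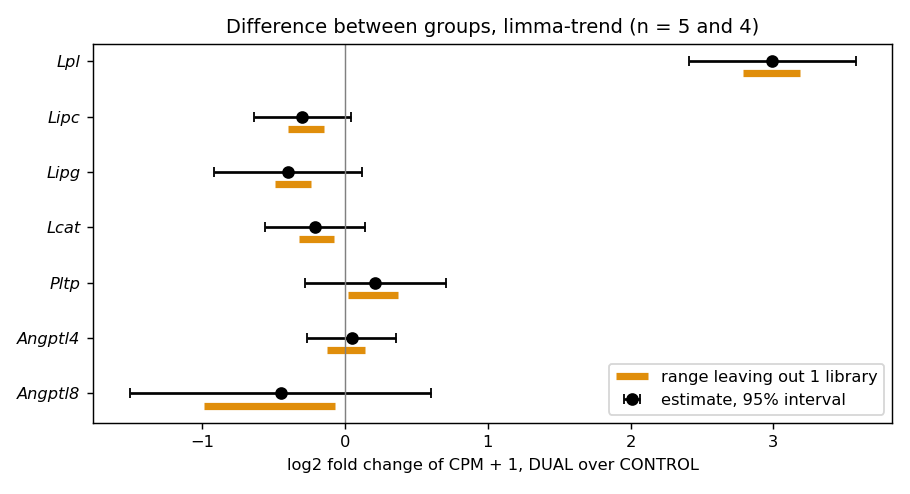
Log2 fold change of CPM + 1 (horizontal axis, DUAL over CONTROL) for each member with its 95% interval from limma-trend (black) and the range of estimates when each of the 9 libraries is left out in turn (orange). The Lpl interval runs from 2.41 to 3.58, and those of the other 6 members include 0.

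The order of the levels differed between the groups in the place of Lpl. In DUAL livers the means descended from Lpl (127 CPM) through Lcat (100.2 ± 23.8 CPM), Angptl4 (60.4 ± 7.14 CPM), Lipc (42.5 ± 10.3 CPM), Pltp (19.7 ± 7.56 CPM) and Angptl8 (5.10 ± 2.50 CPM) to Lipg (1.03 ± 0.43 CPM; SD, n = 5 each). In CONTROL livers they descended from Lcat (114 ± 17.3 CPM) through Angptl4 (59.5 ± 13.6 CPM), Lipc (51.3 ± 2.49 CPM), Pltp (16.5 ± 4.66 CPM), Lpl (14.8 CPM) and Angptl8 (9.33 ± 7.46 CPM) to Lipg (1.64 ± 0.35 CPM; SD, n = 4 each). Neighbours in this order overlapped in single values from Lpl through to Pltp in DUAL, where Lcat reached down to 67.4 CPM and Angptl4 up to 67.6 CPM, whereas Pltp, Angptl8 and Lipg lay apart from each other. In CONTROL the neighbours Angptl4 and Lipc overlapped, as did the neighbours from Pltp down to Lipg, whereas Lcat lay above Angptl4 and Lipc above Pltp in every liver.

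Of the genes searched, those whose levels followed Lpl most closely over the 9 libraries are expressed by macrophages. The search covered 9951 of the 11030 genes averaging 5 CPM or more. It left out the members, clone-like names, ribosomal protein and mitochondrially encoded genes and several gene families, among them Mup, Gst, Ugt and Sult. On the log2(CPM + 1) scale the 3 with the highest Pearson r with Lpl were Gpnmb, Cd5l and Ctss. Gpnmb is a lysosomal glycoprotein of lipid-laden macrophages (r = 0.989), Cd5l a secreted macrophage protein (r = 0.979) and Ctss a lysosomal protease gene (r = 0.976). After group means were subtracted, r was 0.88 for Gpnmb, 0.75 for Cd5l and 0.72 for Ctss. Gpnmb stood at 53.4, 20.5, 22, 29.4 and 34.0 CPM in DUAL 1 to 5, against 1.32, 3.15, 2.09 and 1.89 CPM in CONTROL 1 to 4, and the 5 DUAL livers had the same order for Gpnmb as for Lpl. All 9 points share libraries and 2 groups, and the genes were picked as the highest of many, so these r are descriptions. For Lcat the nearest gene was Slc10a1, the bile acid uptake transporter of hepatocytes (r = 0.968), followed by Mug-ps1 (0.967) and Pigr (0.951). For Angptl8 it was Anks4b (r = 0.980), followed by Ccng2, a cyclin gene (0.963), and Depdc7 (0.945). For Lipc, Nxt1 (r = 0.953) and Msh6 (0.944) were among the nearest 3, and for Lipg they were Cic (r = 0.95), Khdc4 (0.908) and Rgcc (0.905). For Pltp they were Nap1l4 (r = 0.929), Katnip (0.918) and Tbcc (0.916), and for Angptl4 Tmem168 (r = 0.924), Telo2 (0.914) and Akt1 (0.914). None of these genes named for Lcat, Angptl8, Lipc, Lipg, Pltp and Angptl4 was itself called.

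Many, but not all, marker genes of macrophages were higher in DUAL, as Lpl was. Of 10 Kupffer cell markers 7 rose (Cd5l, C1qc, C1qa, C1qb, Folr2, Vsig4 and Clec4f), and their summed level was 369.6 to 667 CPM in DUAL and 91.9 to 195 CPM in CONTROL, while Timd4 and Cd163 had log2 fold changes of -0.22 and -0.50 without being called. Of 10 lipid-associated macrophage markers 6 rose (Gpnmb, Mmp12, Cd68, Trem2, Atp6v0d2 and Ctsd), with sums of 606 to 748 CPM in DUAL and 491 to 502 CPM in CONTROL. Spp1, Cd9, Fabp5 and Itgax had log2 fold changes of 0.06, 0.09, -0.04 and 0.31 without being called. Ctsd and Spp1 had the highest means of that list (378 and 124 CPM in DUAL, 274 and 118 CPM in CONTROL). The call of Clec4f ended without DUAL 1 or DUAL 5 and under robust limma-trend (adjusted p up to 0.0814), and that of Ctsd without CONTROL 3 (0.0502). Of 8 monocyte markers, 7 were tested and 3 rose (Lyz2, Csf1r and Plac8), and their sums were 486 to 645 CPM in DUAL and 339 to 414 CPM in CONTROL. The call of Csf1r ended without DUAL 5 or CONTROL 1 and under robust limma-trend (adjusted p up to 0.129), and that of Plac8 without DUAL 5, CONTROL 1, CONTROL 3 or CONTROL 4 (up to 0.0704, limma-trend). The level of Lpl divided by the Kupffer sum was 0.187 to 0.318 in DUAL and 0.0616 to 0.134 in CONTROL, and divided by Gpnmb it was 3.37 to 4.57 in DUAL and 5.92 to 10.0 in CONTROL. Gpnmb had only 8, 15, 12 and 10 reads in CONTROL 1 to 4, against 117 to 198 reads in DUAL. The CONTROL ratios to Gpnmb thus carry a large counting error. After group means were subtracted, r of Lpl with the log2 marker sum was 0.72 for Kupffer cells and 0.53 for lipid-associated macrophages. It was 0.59 for sinusoidal endothelium and 0.07 for adipocytes, so the tie within groups was not particular to macrophage lists. The part of macrophage number in the Lpl result was not tested.

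Adipocyte markers were examined because fat is rich in Lpl. Their sum was 185 to 284 CPM in DUAL and 88.5 to 165 CPM in CONTROL, and 3 of 5 tested markers rose (Cfd, Fabp4 and Cidea). Pnpla2, which was not called, had the highest mean of the list in both groups (119.7 CPM in DUAL, 105 CPM in CONTROL). It stood at 135 CPM in DUAL 1, so the sum is not a measure of fat alone. The defining transcripts were at or near 0: Adipoq had 2 reads in DUAL 5 and 0 in the other libraries, Lep had 0 reads in all 9, Retn had at most 1 read and Adig at most 4 reads in a library. Plin1 had 4, 1, 0, 1 and 3 reads in DUAL 1 to 5 and 0 reads in every CONTROL library. DUAL 1, the liver with the highest Lpl, had the lowest adipocyte sum of the DUAL livers (185 CPM) and 16 reads of Cfd, against 63 to 846 reads in the other DUAL livers. The part of fat in the Lpl result was not tested. The call of Cidea ended without any of 7 single libraries (adjusted p up to 0.122, limma-trend), that of Fabp4 without CONTROL 1 (0.0547) and that of Cfd under robust limma-trend (0.131). Of the sinusoidal endothelial and stellate cell lists, 1 of 10 tested (Fcgr2b, not called without DUAL 5 or CONTROL 3) and 1 of 9 tested (Dcn) rose. Their sums were 179 to 225 CPM in DUAL and 119.6 to 185 CPM in CONTROL for the endothelium, and 2457 to 2808 CPM in DUAL and 2421 to 2694 CPM in CONTROL for stellate cells. The stellate sum was mostly Col1a1 (mean 1972 CPM in DUAL, 2075 CPM in CONTROL). Of the 9 tested stellate markers 7 had a positive and 2 a negative log2 fold change.

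**Figure D4:**
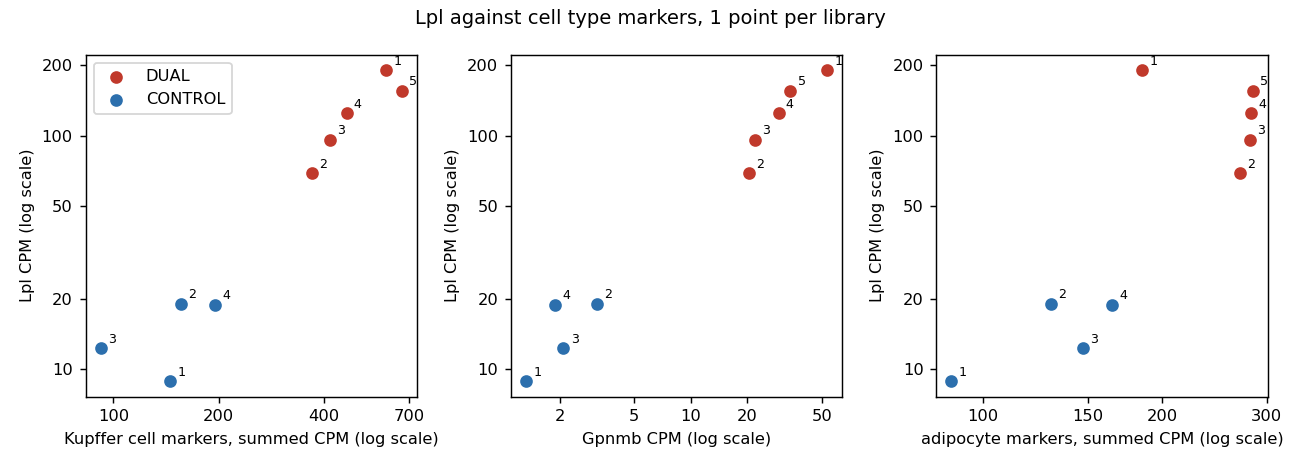
Lpl CPM (vertical log axis) against the summed CPM of 10 Kupffer cell markers, the CPM of Gpnmb and the summed CPM of 10 adipocyte markers (horizontal log axes), 1 numbered point per library. Among the DUAL livers Lpl and Gpnmb have the same order, and DUAL 1 combines the highest Lpl (191 CPM) with the lowest adipocyte sum of its group (185 CPM).

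Proteins that assist, anchor or cleave lipoprotein lipase mostly did not pass the test. Of 16 such genes 15 were tested, 1 rose, 0 fell, and the median log2 fold change was -0.04. The gene that rose was Pcsk6, a proprotein convertase that can cleave lipases, at 98.9, 77.6, 113, 76.7 and 112 CPM in DUAL 1 to 5, against 56.0, 66.6, 52.7 and 63.7 CPM in CONTROL 1 to 4. Every DUAL liver exceeded every CONTROL liver for Pcsk6 (log2 fold change 0.66 ± 0.13, SE, adjusted p = 0.0153, limma-trend), but the call ended without CONTROL 1 or CONTROL 3 (adjusted p 0.0502 to 0.0537). Gpihbp1, which carries lipoprotein lipase to the capillary lumen, stood at 23.8 to 28.3 CPM in DUAL and at 13, 17.0, 13 and 28.0 CPM in CONTROL 1 to 4, with CONTROL 4 inside the DUAL range (log2 fold change 0.58 ± 0.18, SE, adjusted p = 0.148, limma-trend). Without CONTROL 4 Gpihbp1 was called (log2 fold change 0.81, adjusted p = 0.00451, limma-trend). The inhibitor apolipoprotein gene Apoc3 averaged 1221 ± 118 CPM in DUAL and 1427 ± 203 CPM in CONTROL, and the activator gene Apoa5 averaged 732 ± 90.2 CPM in DUAL and 841 ± 144 CPM in CONTROL (SD, n = 5 and 4), without being called (adjusted p 0.437 and 0.591, limma-trend). Apoc2, the obligate cofactor, was listed at 0 in all 9 libraries. Apoc1 and Apoc4 of the same list averaged 3512 and 658 CPM in DUAL and 3133 and 767 CPM in CONTROL. Whether the 0 of Apoc2 came from the livers or from the counting was not tested.

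Among HDL proteins and transfer genes, which include Lcat and Pltp, 2 of 13 tested rose and 1 fell (median 0.18). Apoa4, an apolipoprotein of triglyceride-rich particles and HDL, averaged 701 ± 417 CPM in DUAL and 89.8 ± 28.4 CPM in CONTROL (log2 fold change 2.79 ± 0.40, SE), though robust limma-trend did not call it (adjusted p = 0.0517). The sterol exporter gene Abcg1 averaged 11.2 ± 2.55 CPM in DUAL and 4.30 ± 1.17 CPM in CONTROL. Apoa1, the main HDL protein and the activator of Lcat, averaged 3436 ± 580 CPM in DUAL and 5019 ± 382 CPM in CONTROL (adjusted p = 0.0407, limma-trend). Abca1, which loads lipid onto Apoa1, averaged 159 ± 24.0 CPM in DUAL and 126 ± 12.4 CPM in CONTROL and was not called (adjusted p = 0.157, limma-trend). Scarb1, the HDL receptor, averaged 138 ± 23.4 CPM in DUAL and 126 ± 11.6 CPM in CONTROL and was not called either (adjusted p = 0.794, limma-trend).

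Other lipases of the same broad class included 1 of 9 tested that rose and 0 that fell (median 0.23). Mgll, the monoacylglycerol lipase, averaged 243 ± 52.9 CPM in DUAL and 131 ± 20.6 CPM in CONTROL (log2 fold change 0.87 ± 0.15, SE, adjusted p = 0.00798, limma-trend). Lipa, the lysosomal acid lipase, averaged 123 ± 27.5 CPM in DUAL and 92.0 ± 15.2 CPM in CONTROL without being called (adjusted p = 0.286, limma-trend). Ces3a and Pla1a had log2 fold changes of -0.50 and -0.49 without being called (adjusted p 0.0717 and 0.0916, limma-trend). DESeq2 called Ces3a lower in DUAL (log2 fold change -0.49, adjusted p = 0.0212). The pancreatic lipase genes Pnlip, Pnliprp1 and Pnliprp2 were below the filter, and Pnliprp2, Lipi and Pnpla3 were listed at 0. The part of the counting in these 0 values was not tested.

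Because Angptl4 is a target of the fatty acid receptors of the PPAR family, other targets were set beside it. Of 20 such genes, all tested, 10 rose and 0 fell (median 0.73), led by Cd36, Cidec, Vnn1, Acaa1b and Ehhadh. Cd36, a fatty acid transporter, averaged 73.6 ± 13.5 CPM in DUAL and 23.1 ± 3.33 CPM in CONTROL, and Ehhadh, a peroxisomal oxidation enzyme, 37.5 ± 9.99 CPM in DUAL and 12 ± 5.54 CPM in CONTROL. Pdk4 and Plin2 had log2 fold changes of 0.77 and 0.57 and were not called (adjusted p 0.389 and 0.403, limma-trend), as was Angptl4 at 0.05. Plin4 was not called by robust limma-trend (adjusted p = 0.0635). Acadm was not called without DUAL 1, DUAL 5, CONTROL 1 or CONTROL 3 (adjusted p 0.0541 to 0.0805). The list was compiled with earlier results of these data known, so its count is no independent evidence of a direction.

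Lpl and Pltp are known targets of the sterol receptor LXR. Of 14 LXR targets, all tested and including both, 4 rose (Lpl, Scd1, Abcg1 and Abcg5) and 0 fell (median 0.30). Scd1, a fatty acid desaturase, averaged 2918 ± 578 CPM in DUAL and 906 ± 322 CPM in CONTROL, and Abcg5, a sterol exporter subunit, averaged 56.1 ± 14.5 CPM in DUAL and 28.0 ± 5.01 CPM in CONTROL. Abcg8 of the same list averaged 53.8 ± 11.8 CPM in DUAL and 49.8 ± 9.02 CPM in CONTROL and was not called (adjusted p = 0.868, limma-trend). Srebf1 averaged 47.6 ± 12 CPM in DUAL and 49.5 ± 15.6 CPM in CONTROL. Srebf1, Mylip, Lpcat3, Arl4c and Nr1h3 were not called either. Of the insulin and carbohydrate responsive lipogenic genes, set beside Angptl8, 1 of 15 tested rose (Scd1) and 0 fell (median -0.09). Fasn, the fatty acid synthase, averaged 111 ± 12.5 CPM in DUAL and 163 ± 39.6 CPM in CONTROL (adjusted p = 0.0631, limma-trend). DESeq2 called 2 further genes of this list, both lower in DUAL, which were Fasn (log2 fold change -0.56, adjusted p = 0.0121) and Acly, the ATP citrate lyase (-0.28, adjusted p = 0.0321).

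**Figure D5:**
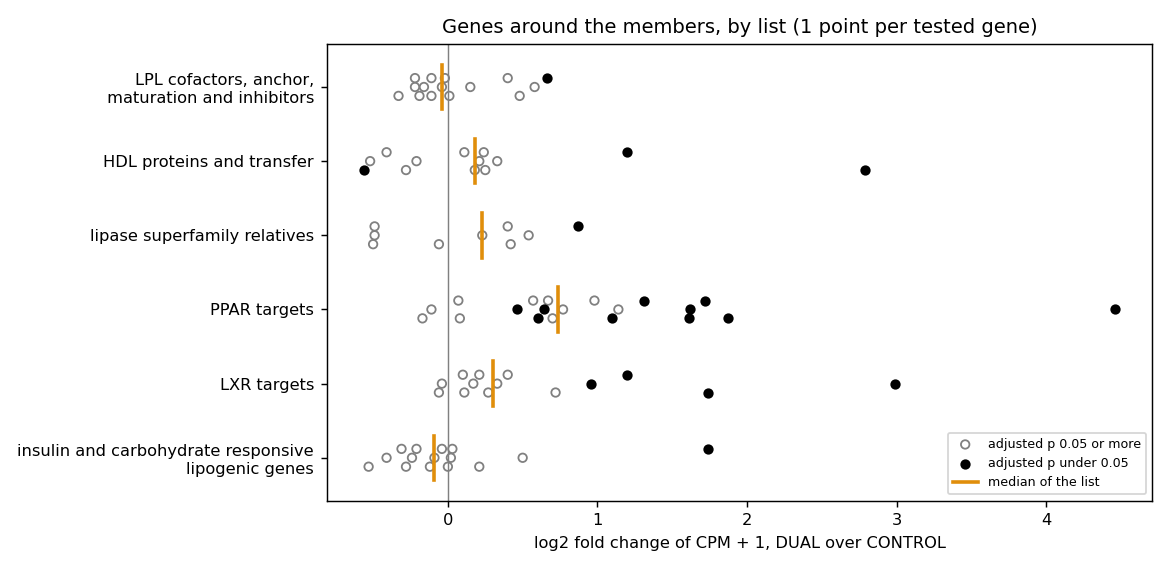
Log2 fold change of CPM + 1 (horizontal axis, DUAL over CONTROL) of each tested gene in 6 lists around the members, filled where the adjusted p was under 0.05, with the median of each list in orange. The PPAR targets have 10 filled points, all to the right of 0, and the list of lipoprotein lipase cofactors has 1.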

How the data were processed

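Per the labels' protocols, liver RNA of 9 mice was isolated by Trizol and chloroform, and a Collibri kit for 3′ mRNA gave the libraries. Per the submitters' processing notes, Trim Galore 0.6.0, cutadapt 1.18, STAR (no version is named there), HTSeq 0.11.0, edgeR 3.28.1, R 3.6.3 and build GRCm39 were used. The deposited values are a signal, CPM scaled by TMM by the authors. All positive values (100%, relative tolerance 1e-06) were whole multiples of their column's smallest, so whole reads were recovered. Library names in the labels tied each column to a mouse, and titles gave its group.

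Here log2(CPM + 1) was tested by limma-trend for genes averaging 1 CPM or more, with Benjamini-Hochberg adjustment and a threshold of 0.05 (two-sided, R 4.3.3 with limma 3.58.1). Fold changes of low genes are understated on this scale. edgeR 4.0.16 and DESeq2 1.42.0 on the recovered reads called 315 and 545 genes, against 338 for limma-trend. The fit was also run on simulated counts with the same dispersion for every gene, which cannot show how it performs for the members, and nothing is concluded from it. Gene overlaps came from GENCODE vM21 of another build, so no gene coordinates are printed. Members and lists were chosen with earlier results of these data known. Named genes were all members, up to 5 called genes per list (3 per marker list), preset partners and the 3 genes of highest correlation per member. Some genes of that rule, and 1 list of lipoprotein uptake genes, are not reported here. Other named list genes were chosen after their values were seen. A planned permutation test of the Lpl share is not given, since the share is built from members chosen with results known.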

Additional observations from a re-analysis of the deposited data

Results flagged for a closer look

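1 of the 30 sets of values examined (the 7 members, the Lpl share and 7 marker sums in each group) held a library far from the others by Dixon's test, about as many as chance gives (1 in 20 groups). The adipocyte marker sum of DUAL 1 was 185 CPM, with the other DUAL livers at 270.1 to 284 CPM. No member was among them.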

How the results depend on the processing

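Lpl was called in all 19 alternatives. Its log2 fold change was 2.79 to 3.19 when each library was left out, and the adjusted p was 2.89e-14 (DESeq2) to 0.00589 (robust limma-trend). The other 6 members were called in none of theirs; Lipg had no value under the filter at 5 CPM. The sign of Angptl4 turned to -0.13 without CONTROL 1 (leaving out single libraries gave -0.13 to 0.14). The number of all genes called was 545 with DESeq2 and 201 to 387 leaving out single libraries (201 without DUAL 5). Of the lipoprotein lipase cofactor list 0 to 2 genes were called leaving out single libraries (0 without CONTROL 1 or CONTROL 3, 2 without CONTROL 4). Of the other lipases it was 1 to 2 (2 without DUAL 2, 3 or 4, and 2 with DESeq2). The added call there was Ces1d, higher in DUAL, without DUAL 2, and Ces3a, lower in DUAL, in the other cases. Of the lipogenic list it was 1 to 2 (2 without DUAL 2, CONTROL 1 or CONTROL 4, and 3 with DESeq2). The added calls of the lipogenic list were lower in DUAL except without CONTROL 4. The cause was not tested.

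Replicate numbers are shared by the groups, but same-numbered libraries correlated at -0.01, -0.31, -0.21 and -0.01 in their deviations from group means. No library correlated best with its own number. These values gave no sign that the numbers pair mice, but they cannot exclude it. With the replicate number as a block, which leaves fewer degrees of freedom, 112 genes were called. Lpl was still called (adjusted p = 0.00551), and the block left 0 calls in the cofactor list, 1 in the HDL list, 0 in the other lipases, 5 in the PPAR list and 2 in the LXR list. Depth limits Lipg (2 to 11 reads a library). Precision elsewhere is limited by 5 and 4 mice, and intervals of uncalled members allow changes in CPM + 1 such as 0.352-fold to 1.51-fold for Angptl8.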
